A study of Mus musculus with 22 samples.

Results

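Macrophages sorted from the mouse renal capsule, the thin connective tissue envelope of the kidney, were compared with macrophages sorted from the kidney itself. The comparison uses the 8 libraries whose titles name macrophages, 4 of the capsule and 4 of the kidney. The series holds 22 bulk RNA-seq libraries. The other 14 libraries are 6 of whole capsule tissue and 8 titled RCAMs, from young and aged mice, and served here to sort genes into classes and for a few levels given beside the results. All 8 sorted samples carry the treatment label none. The labels do not give their strain, sex or age, the sort gate, or whether a sample pooled several animals, and nothing says that the samples came from separate mice. The p-values below therefore measure only the spread from sample to sample, which may be technical.

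Macrophages of healthy organs are renewed in place or from blood monocytes, and they take on different gene programmes in different niches. A widespread pattern in connective tissue and along vessels is a macrophage with the hyaluronan receptor Lyve1, the folate receptor Folr2, the phosphatidylserine receptor Timd4 and the haemoglobin scavenger receptor Cd163. In the kidney, resident macrophages lie between the tubules and are known for the fractalkine receptor Cx3cr1, the integrin Itgax and abundant MHC class II. Both kinds depend on signalling through Csf1r, the receptor for macrophage colony-stimulating factor.

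Total counts ran from 39320398 to 53396998 in the capsule macrophage libraries and from 31848761 to 49864438 in the kidney macrophage libraries. The first principal component of log2 CPM (counts per 1000000 counts of the library) separated the groups and held 75.7% of the variance, while the second, with 6.47%, set capsule replicate 1 apart. Correlations of log2 CPM lay between 0.955 and 0.964 within the capsule group, between 0.976 and 0.99 within the kidney group and between 0.83 and 0.861 across them. Genes overlapped by other annotated genes over their whole span were mostly counted low or not at all in these files: 95% of 1269 such protein-coding genes lay under 1 CPM, against 51.6% of 12086 genes with no overlap and 26.7% of 7550 genes overlapped over the lesser part of their span. B2m, Irf8, Ccl2, P2ry12, Timp1 and Hif1a, each overlapped over its whole span, are listed at 0 in all 8 sorted libraries, and Itgam had 3 to 23 counts in a library. Nothing can be said here of those genes. Of 204 protein-coding genes that lie wholly under genes of the other strand and reached 10 CPM in capsule tissue, 169 had 0 counts in all 8 sorted libraries. Likewise, 169 of the 204 had 0 counts in all 8 RCAM libraries. Levels below are CPM of the scaled library total, given for replicates 1 to 4 in that order, and are not divided by gene length, so that levels of different genes are not comparable.

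Genes that define macrophages were found in every library of both groups. Csf1r stood at 7444, 7857, 7051 and 8471 CPM in the capsule libraries and at 3876, 4481, 3851 and 3965 CPM in the kidney libraries. Adgre1, which encodes the F4/80 antigen, stood at 1817, 1790, 1785 and 1894 CPM in the capsule group and at 1488, 1597, 1500 and 1602 CPM in the kidney group. For both genes every capsule library lay above every kidney library, with a log2 fold change (capsule over kidney) of 0.93 ± 0.08 (SE) for Csf1r and 0.24 ± 0.06 for Adgre1 (edgeR adjusted p = 4.42e-06 and 0.0068). Of the 26 pan-macrophage genes tested, 19 were higher and 4 lower in the capsule group, with a median log2 fold change of 0.70. Itgam counts among the higher ones, here and in the complement and integrin lists below, on the few counts given above. The 4 lower ones were the oxidase subunit Cybb (-1.16), the protease Ctss (-1.28), the leukocyte phosphatase Ptprc (-1.33) and the lipopolysaccharide co-receptor Cd14 (-0.74). The transcription factor Spi1, at 660 CPM in the capsule and 592 CPM in the kidney on average, did not pass the test, and Adgre1 did not pass it (0.05 on the log2 scale) with scaling factors from macrophage-side genes alone, a setting described next.

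In the fit over all 15701 genes that passed the filter on low counts, 4281 genes were higher and 4420 lower in capsule macrophages at an adjusted p under 0.05 (edgeR), which is 55.4% of the genes tested, 27.3% higher and 28.2% lower. A difference of at least 2-fold was met by 1885 higher and 2443 lower genes, or 12% and 15.6% of those tested and 27.6% together, and in 53.2% of the genes the values of the groups did not overlap. The median log2 fold change over all genes tested was -0.03. With the scaling factors taken from macrophage-side genes alone, this median moved to -0.22, and 3212 genes were called higher and 5564 lower, so that the share of higher genes among those called fell from 49.2% to 36.6%. Small differences on the log2 scale therefore take their sign from the scaling.

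A sorted population can carry RNA of neighbouring cells, and the genes were therefore sorted by the 14 libraries outside this comparison. A gene was called macrophage-side where the RCAM libraries exceeded capsule tissue by at least 2-fold at an adjusted p under 0.05 (edgeR), and tissue-side where the reverse held. The RCAM libraries carry the cell type label whole tissue, but Csf1r exceeded capsule tissue in them by 4.46 on the log2 scale, while Kap, a proximal tubule gene, lay below it (-8.91). By construction, a gene of kidney macrophages that the capsule lacks cannot become macrophage-side. A gene of any other cell that is more abundant in the RCAM libraries than in capsule tissue can. The class therefore does not tell macrophages from other leukocytes. Genes wholly under genes of the other strand were mostly at 0 in the RCAM libraries though expressed in capsule tissue, as given above. Overlap can therefore by itself make a gene tissue-side, and its part in the classes was not tested. Of 4371 macrophage-side genes tested, 1696 were higher and 1002 lower in capsule macrophages. Among 4143 tissue-side genes, 838 were higher and 1493 lower, and among 7187 genes of neither class 1747 were higher and 1925 lower. Macrophage-side genes held 67.4% to 67.7% of the counts in the capsule libraries and 61.5% to 64.9% in the kidney libraries, and tissue-side genes held 5.04% to 5.28% and 6.51% to 8.11%.

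**Figure D1:**
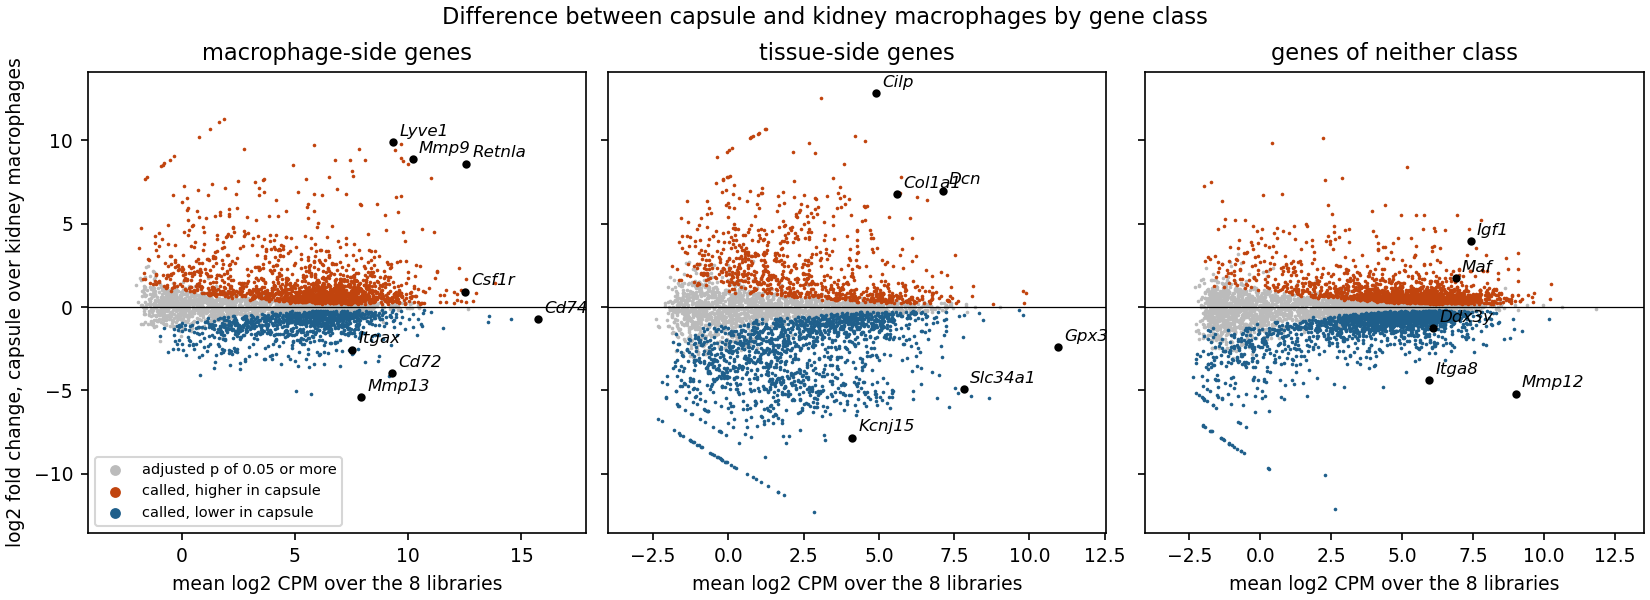
Log2 fold change of capsule over kidney macrophages against the mean log2 CPM over the 8 libraries, 1 point for each of the 15701 genes, in 3 panels by gene class, coloured by call (adjusted p under 0.05). Of the genes marked in the macrophage-side panel, a class that needs a gene to be high in RCAM libraries, Lyve1, Mmp9 and Retnla lie farthest from zero, toward the capsule. Tissue-side genes spread far in both directions, with Cilp (12.83) beyond Lyve1 toward the capsule. The straight rows of points are genes with 0 counts in one group, whose fitted values are not fold changes.

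The macrophage-side genes with the largest differences were low in the kidney group. Lyve1 had 1326, 1575, 996 and 1241 CPM in the capsule libraries and 1.11, 0.814, 1.36 and 2.03 CPM in the kidney libraries. Its log2 fold change was 9.91 ± 0.28 (SE; edgeR adjusted p = 2.99e-09). The resistin-like protein gene Retnla reached 11808, 12908, 12622 and 10956 CPM in the capsule and stayed at 27.1, 31.8, 25.6 and 39.2 CPM in the kidney (log2 fold change 8.61 ± 0.17). Mmp9, which encodes a gelatinase, stood at 2267, 2425, 2207 and 2485 CPM against 4.57, 5.26, 5.06 and 5.31 CPM, a difference of 8.86 ± 0.10. Only genes without overlap between the groups entered this ranking, so the separation of the libraries follows from the choice. The others of the 12 with the largest differences were the C-type lectins Cd209f (9.78) and Cd209g (8.83), the complement component C6 (9.71), the secreted phospholipase Pla2g2d (9.48), the endothelin receptor Ednrb (9.41), the carbonyl reductase Cbr2 (8.92), the chemokine Ccl24 (8.83), the calcineurin-like protein Chp2 (8.82) and Folr2 (8.74), each on the log2 scale. Without kidney replicate 3, the highest of its group for C6, that gene differed by 10.51. In the RCAM libraries Lyve1 averaged 1169 CPM and Cd209f averaged 1640 CPM of the unscaled total. The class requires a gene to be higher in the RCAM libraries than in capsule tissue, so these levels are no separate check.

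**Figure D2:**
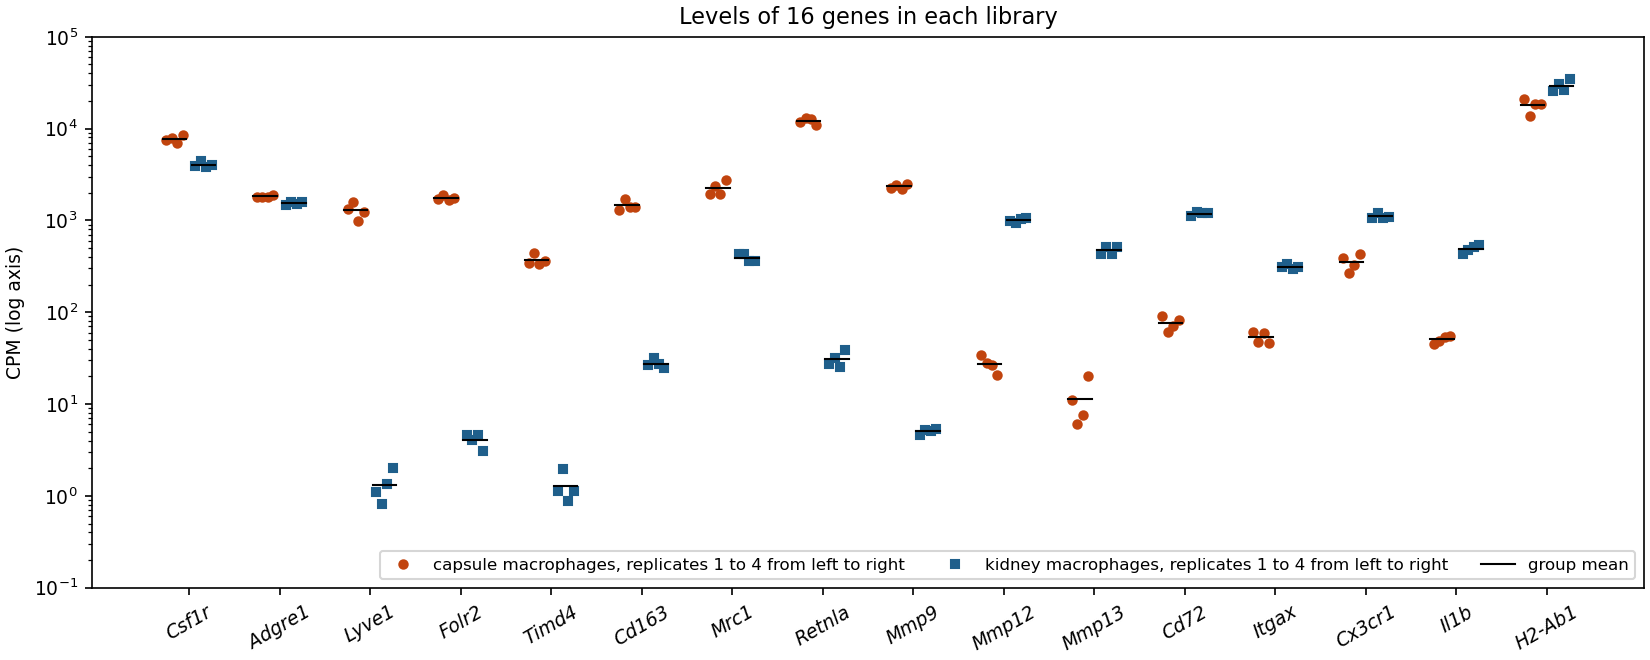
Levels of 16 genes in each library, in CPM on a log axis, with circles for the 4 capsule libraries, squares for the 4 kidney libraries and a bar for each group's mean. Csf1r and Adgre1 lie close together in the groups, Lyve1 to Mmp9 are higher in every capsule library, and Mmp12 to H2-Ab1 are higher in every kidney library.

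Toward the kidney the class holds only genes that were also high in the RCAM libraries, and its extremes are therefore not comparable with those toward the capsule. Mmp13, a collagenase gene, had 11.2, 6, 7.6 and 20.4 CPM in the capsule libraries and 427, 512, 429 and 514 CPM in the kidney libraries (log2 fold change -5.38 ± 0.35; edgeR adjusted p = 7.54e-07). Cd72, a C-type lectin best known from B cells, had 92.1, 61.5, 70.5 and 83.3 CPM against 1116, 1226, 1190 and 1192 CPM (-3.94 ± 0.13). The type I receptor for transforming growth factor beta, Tgfbr1, had 82.1, 64.6, 50.8 and 55.2 CPM against 1236, 1175, 1084 and 881 CPM (-4.11 ± 0.17). Of B cell genes, Cd79b and Cd22 were lower in the capsule as well and Ighm was higher, and their part in the level of Cd72 was not tested. In each of Mmp13, Cd72 and Tgfbr1 the lowest kidney library was more than 10 times the highest capsule library. These genes were chosen for large differences without overlap between the groups. Next to them stood the kinase Srpk3 (-5.22), the inflammasome sensor Nlrp1b (-3.61), Zmynd15 (-3.55), the serine protease Prss30 (-3.44), the cholesterol 25-hydroxylase Ch25h (-3.42), the lectin-like receptor Klra2 (-3.38), the cytokine Il1b (-3.29), the adhesion molecule Cadm1 (-3.26) and Ptchd1 (-3.24). Mmp12, the macrophage elastase, belongs to neither class, with 34.6, 28.3, 26.4 and 20.5 CPM in the capsule and 984, 938, 1027 and 1054 CPM in the kidney (-5.19 ± 0.16).

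Promoter windows were at hand for 19 of the 24 macrophage-side genes of largest difference (12 in each direction), from the RefSeq annotation of GRCm38.p6, each from 250 bases before to 50 after the transcript start. They were searched on both strands for PU.1 (GAGGAAGT), AP-1 (TGANTCA), MAF (TGCTGAC), NR4A (AAAGGTCA) and SMAD-type (GTCTAGAC) letters and for the longer interferon-type and NF-kB motifs. Some of the windows with a match are shown, 5′ to 3′ on the strand of the gene, because they belong to genes at the extremes of the comparison, with the matched letters in capitals. They were chosen after their values were seen.
Cd209f, chr8:4105715-4106014, minus strand: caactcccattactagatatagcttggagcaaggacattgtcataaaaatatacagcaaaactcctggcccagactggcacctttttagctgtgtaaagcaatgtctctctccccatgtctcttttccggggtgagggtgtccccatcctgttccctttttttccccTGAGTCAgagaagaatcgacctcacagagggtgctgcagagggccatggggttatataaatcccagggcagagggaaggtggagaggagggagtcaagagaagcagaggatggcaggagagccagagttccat
Cd209g, chr8:4134486-4134785, plus strand: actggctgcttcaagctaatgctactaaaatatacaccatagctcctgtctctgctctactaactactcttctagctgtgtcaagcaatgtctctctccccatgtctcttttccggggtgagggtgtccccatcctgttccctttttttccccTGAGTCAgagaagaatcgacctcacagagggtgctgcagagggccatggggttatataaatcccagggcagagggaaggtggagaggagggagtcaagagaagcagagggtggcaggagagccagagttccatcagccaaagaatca
Retnla, chr16:48842359-48842658, plus strand: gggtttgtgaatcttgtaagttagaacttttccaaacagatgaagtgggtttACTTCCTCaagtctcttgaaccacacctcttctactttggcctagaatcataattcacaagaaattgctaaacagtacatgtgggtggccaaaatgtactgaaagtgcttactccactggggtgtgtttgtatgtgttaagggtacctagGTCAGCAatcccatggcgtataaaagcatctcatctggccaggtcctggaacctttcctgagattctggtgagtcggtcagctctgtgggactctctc
Mmp13, chr9:7272264-7272563, plus strand: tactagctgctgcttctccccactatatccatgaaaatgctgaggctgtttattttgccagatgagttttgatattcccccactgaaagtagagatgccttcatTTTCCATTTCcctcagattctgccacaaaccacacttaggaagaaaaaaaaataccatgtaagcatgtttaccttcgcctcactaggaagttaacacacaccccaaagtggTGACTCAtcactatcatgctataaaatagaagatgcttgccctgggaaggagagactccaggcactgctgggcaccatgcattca
Cd72, chr4:43454577-43454876, minus strand: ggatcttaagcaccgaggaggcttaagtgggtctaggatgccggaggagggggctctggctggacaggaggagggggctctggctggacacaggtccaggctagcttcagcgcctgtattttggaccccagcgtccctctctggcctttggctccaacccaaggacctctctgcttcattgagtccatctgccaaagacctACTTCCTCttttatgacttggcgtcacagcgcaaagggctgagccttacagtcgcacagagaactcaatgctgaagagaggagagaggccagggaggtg
The windows of Cd209f and Cd209g, related genes on opposite strands of the same region, share an unbroken run of 180 bases that holds the AP-1 letters, 83 to 77 bases before the start of Cd209f and 97 to 91 bases before that of Cd209g. The reads of such similar genes may not be cleanly split between them. In Retnla the PU.1 letters lie 198 to 191 and the MAF letters 48 to 42 bases before the RefSeq start, both on the other strand. GENCODE M21 begins Retnla at base 48842551, before the MAF letters, which thus lie inside the gene in that annotation. It begins Cd209g at base 4134098, before the whole window. In Mmp13 the AP-1 letters lie 35 to 29 bases and the interferon-type letters 146 to 137 bases before the start, and in Cd72 the PU.1 letters lie 49 to 42 bases before it. Of all 32851 windows, 7.81% hold the AP-1 letters, 3.2% those of PU.1, 4.67% those of MAF and 3.44% the interferon-type letters, so a match is a description of the letters and not of binding.

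The list of Lyve1-type resident and perivascular macrophage genes held 32 tested members, of which 31 were higher and 1, the sorting nexin Snx24 (-0.51), lower in the capsule, against 27.3% of all genes tested called higher. The list was drawn up with earlier results of these data known, so its counts describe it and are no test. Its median log2 fold change was 5.93, beside -0.03 over all genes. Summed over the list, capsule libraries had 47085, 53930, 47890 and 49981 CPM of the unscaled total and kidney libraries 5361, 5051, 5429 and 4757 CPM. Folr2 stood at 1695, 1874, 1669 and 1757 CPM in the capsule and 4.59, 4.09, 4.63 and 3.11 CPM in the kidney. Timd4, which binds phosphatidylserine on dying cells, stood at 347, 438, 339 and 360 CPM against 1.13, 1.98, 0.881 and 1.14 CPM (log2 fold change 8.16 ± 0.22). Cd163 had 1297, 1709, 1408 and 1413 CPM against 26.8, 32, 27.2 and 24.4 CPM (5.72 ± 0.13). Mrc1, the mannose receptor, differed less, with 1955, 2368, 1933 and 2722 CPM against 427, 429, 360 and 359 CPM (2.51 ± 0.13). The smallest positive differences in the list were those of the lectin Mgl2 (0.90) and the neuropilin Nrp1 (1.81).

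Of 36 scavenger and clearance receptor genes tested, 25 were higher and 5 lower in the capsule, with a median of 1.12. Beside the Cd209 lectins, Cd163 and Timd4, the sialoadhesin gene Siglec1 (336 against 38.3 CPM, log2 fold change 3.13), the clearance receptor Stab1 (2.13) and Colec12 (7.10) were higher. The receptors of the TAM family, which bind dying cells through the bridging proteins Gas6 and Pros1, went in opposite directions. Mertk had 109, 152, 113 and 128 CPM in the capsule and 28.5, 27.8, 27.9 and 25.8 CPM in the kidney (2.19 ± 0.11), whereas Axl had 669, 582, 595 and 703 CPM against 2078, 2296, 1918 and 2009 CPM (-1.70 ± 0.09). Their ligand Gas6 was higher in the capsule, at 1557, 1791, 1695 and 1932 CPM against 122, 108, 124 and 101 CPM (3.94 ± 0.10), as was Pros1 (1.61). The fungal and mycobacterial pattern receptors Clec7a (-1.22) and Clec4e (-2.31) were higher in the kidney.

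Complement genes were higher in capsule macrophages across several steps of the cascade, with 20 of 24 tested members higher, 3 lower and a median of 1.92. C4b, of the classical pathway, stood at 1729, 2377, 1679 and 2245 CPM in the capsule and 2.65, 11, 2.98 and 4.54 CPM in the kidney (log2 fold change 8.57 ± 0.48, or 9.20 without kidney replicate 2). Cfp, the properdin that stabilises the alternative pathway convertase, stood at 3258, 3376, 2783 and 2657 CPM against 105, 128, 109 and 138 CPM (4.65 ± 0.13). C3 (3.11), the inhibitor Serping1 (5.33) and the anaphylatoxin receptor C5ar1 (1.73) were higher too. The C1q chains differed little, with 0.79 for C1qc, 0.74 for C1qa and 0.33 for C1qb, the last not passing the test with scaling over macrophage-side genes (0.15). The lower members were Itgax, a complement receptor subunit (-2.56), Masp1 (-4.29, or -6.17 without capsule replicate 3) and Cd59a (-1.92, or -2.53 without capsule replicate 2). Of the 24, 8 are tissue-side genes, among them C1ra (4.54) and Cfd (7.73, or 9.37 without kidney replicate 4), both higher.

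Among 20 chemokines tested, 12 were higher and 4 lower in the capsule. The eosinophil attractant Ccl24 reached 499, 546, 575 and 544 CPM in the capsule against 1.01, 0.836, 1.39 and 1.53 CPM in the kidney. The monocyte attractants Ccl8 (303 against 2.71 CPM, log2 fold change 6.79) and Ccl7 (46.1 against 2.45 CPM, 4.23), as well as Pf4 (989 against 40 CPM, 4.63) and Ccl9 (1398 against 207 CPM, 2.75), were higher in the capsule. The lower members were Ccl3, with 23.7, 14.4, 18 and 27.8 CPM in the capsule and 123, 128, 128 and 165 CPM in the kidney (-2.70 ± 0.20), Ccl4 (-2.61), the transmembrane chemokine Cxcl16 (-2.25) and Cxcl14 (-2.39). Of the 16 chemokine receptors tested, 6 were higher and 5 lower, beside 27.3% and 28.2% of all genes. Ccr1, a receptor for Ccl7 and Ccl9, was higher in the capsule (228 against 42.9 CPM, 2.41). Cx3cr1 was lower, at 394, 265, 327 and 427 CPM in the capsule against 1057, 1200, 1070 and 1099 CPM in the kidney (-1.65 ± 0.14), with 57.4% of the gene's span under other annotated genes. Ccr2, the receptor by which monocytes answer Ccl2, was lower as well, at 549, 480, 645 and 486 CPM against 1098, 1087, 1050 and 1035 CPM (-0.98 ± 0.10).

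Secreted growth factors were 9 higher and 7 lower of 21 tested, or 8 and 9 with the scaling over macrophage-side genes, beside 27.3% and 28.2% of all genes, and their median of 0.05 became -0.14 under that scaling. Igf1 (303, 343, 279 and 359 CPM in the capsule against 24.1, 15.9, 25.9 and 18.3 CPM in the kidney, log2 fold change 3.93), Pdgfc (5.55), the progranulin gene Grn (2.19) and Csf1 (1.90), the gene of the macrophage growth factor, were higher in the capsule. Pdgfb (-2.21) and Hgf (-1.43) were lower. The coagulation factor gene F13a1 had 3463, 5122, 3792 and 4225 CPM in the capsule and 21.4, 20.1, 22 and 13.2 CPM in the kidney (7.76 ± 0.22), and the fibronectin gene Fn1 had 1085, 1681, 1683 and 1144 CPM against 16.8, 14.6, 14.9 and 10.7 CPM (6.62 ± 0.22). Both genes are also used as monocyte markers, and they made up most of the capsule sum of the monocyte list. That list had 5 higher and 7 lower of 17 tested members and a median of -0.37. Its sums were 5143 to 7341 CPM of the unscaled total in the capsule and 2078 to 2346 CPM in the kidney. Of its members, Ly6c2 (1.39 against 1.98 CPM) and Plac8 (42.6 against 52.2 CPM) did not pass the test (Plac8 did so with the scaling over macrophage-side genes, at -0.47), and Vcan, with 21 and 11 counts over the capsule and kidney libraries, was not tested. Matrix proteases and their inhibitors were 8 higher and 6 lower of 18 tested, or 7 and 8 under that scaling, beside 27.3% and 28.2% of all genes. Their median was -0.33. Mmp9 was higher in the capsule, Mmp12, Mmp13 and the membrane protease Mmp14 (-1.88) were higher in the kidney, and the inhibitor Timp2 was higher in the capsule (2499 against 449 CPM, 2.48).

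Alternative activation genes, those known to answer interleukin-4, were 16 higher and 4 lower of 22 tested, with a median of 1.71. Retnla, Ccl24 and Mrc1, described above, belong to this list, as does the lectin Clec10a (678 against 64.6 CPM, log2 fold change 3.39). Arg1, at 2.29 against 0.43 CPM, passed the test at a low level, while Chil3, at 3.84 against 4.94 CPM, did so only without capsule replicate 2 (-1.12). The lower members were Mmp12, Clec7a, Tgm2 (-1.15) and Pparg, a nuclear receptor of lipid handling, at 12.6, 22.3, 32.8 and 21.7 CPM in the capsule against 110, 114, 106 and 120 CPM in the kidney (-2.33 ± 0.23).

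Genes of eicosanoid synthesis were 14 higher and 6 lower of 23 tested. Of the genes known from leukotriene synthesis, Alox5, the 5-lipoxygenase, had 561, 674, 600 and 585 CPM in the capsule and 56.8, 59.6, 59.1 and 63.6 CPM in the kidney (log2 fold change 3.34 ± 0.08), and Ltc4s (6.77, with 77.2% of its span under another gene), Lta4h (0.80) and Alox5ap (1.01) were higher as well. The prostaglandin D synthase Hpgds (-1.10) and the prostaglandin receptors Ptger4 (-1.12) and Ptger3 (-2.50) were lower. Ptger3 is also in the list of loop and distal nephron genes, described below. Of 24 iron and haem genes, 14 were higher and 5 lower. Along the path from haemoglobin uptake to iron export, Cd163, the haem transporter Slc48a1 (1.87), the haem oxygenase Hmox1 (301 against 86 CPM, 1.81), the biliverdin reductase Blvrb (2.80) and the iron exporter Slc40a1 (423 against 55 CPM, 2.94) were each higher in the capsule. The ferritin chains Fth1 (3494 against 3749 CPM) and Ftl1 (161 against 165 CPM) did not pass the test, though Fth1 did so without kidney replicate 2 (-0.18) and with the scaling over macrophage-side genes (-0.29).

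Lysosomal genes were 29 higher and 4 lower of 40 tested, with a median of 0.59, or 23 and 7 with a median of 0.40 with the scaling over macrophage-side genes. Ctsb (9292 against 2872 CPM, log2 fold change 1.69), Ctsl (2.14), Grn and Ctsd (2.81, with 55.7% of its span under another gene) led the higher genes. Ctss, which trims the invariant chain of MHC class II, was lower, at 1939, 1683, 1700 and 1631 CPM in the capsule against 3693, 4342, 4038 and 4817 CPM in the kidney (-1.28 ± 0.09). In the list of cholesterol handling genes, 8 were higher and 10 lower of 27 tested, beside 27.3% and 28.2% of all genes. The lipid carriers and exporters Pltp (4289, 4726, 3985 and 4152 CPM in the capsule against 168, 191, 168 and 232 CPM in the kidney), Apoe (1.46) and Abca1 (1.78) were higher, and the synthesis genes Hmgcs1 (-1.36), Cyp51 (-0.89) and Sqle (-0.89) were lower.

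**Figure D3:**
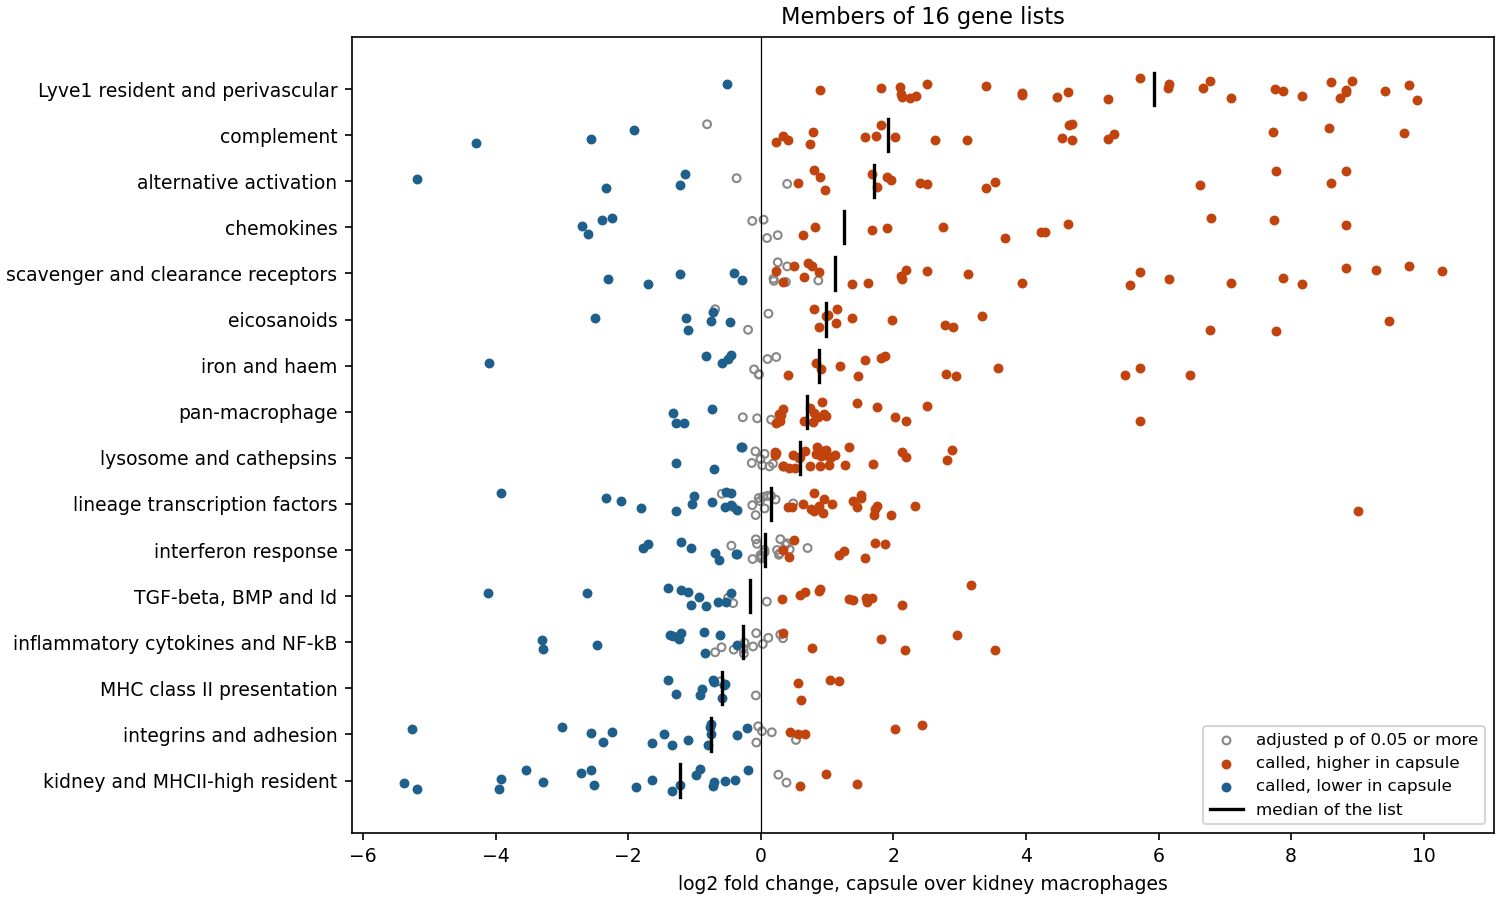
Log2 fold change of capsule over kidney macrophages for the tested members of 16 gene lists, 1 point a gene, filled where the adjusted p was under 0.05, with a bar at each list's median. The Lyve1 list has its median at 5.93 with 1 member below zero, and the list of kidney and MHCII-high resident genes has its median at -1.22.

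The list of genes known from kidney macrophages and from other resident cells rich in MHC class II had 25 tested members, 3 higher and 20 lower in the capsule, against 28.2% of all genes tested called lower. This list, too, was drawn up with earlier results of these data known, and its counts are no test. Its median was -1.22. Itgax had 60.5, 47.7, 59.1 and 45.7 CPM in the capsule and 312, 333, 299 and 308 CPM in the kidney (log2 fold change -2.56 ± 0.11). The low-affinity IgG receptor Fcgr4 had 82.2, 54.7, 56.6 and 71.7 CPM against 312, 370, 350 and 493 CPM (-2.52 ± 0.17), and Tmem119, a gene used to mark microglia, was lower too (22 against 144 CPM, -2.71). The members higher in the capsule were Apoe, the lipid receptor Trem2 (0.98) and Cd63 (0.59).

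MHC class II presentation genes were lower in the capsule in 9 of 15 tested members and higher in 4, with a median of -0.59. Their counts summed to 85213, 61426, 77479 and 78295 CPM of the unscaled total in the capsule and to 132997, 144356, 136942 and 160292 CPM in the kidney. The invariant chain Cd74 took the largest share of counts in all 8 libraries, 3.2% to 4.2% in the capsule and 6.8% to 7.9% in the kidney. H2-Aa had 11844, 7814, 10087 and 10268 CPM in the capsule and 12995, 14268, 13974 and 16881 CPM in the kidney (log2 fold change -0.54 ± 0.12; edgeR adjusted p = 0.00371), H2-Eb1 differed by -0.91 and the transactivator Ciita by -0.89. All these genes stood high in both groups, and the lowest capsule library in H2-Aa and H2-Eb1 was replicate 2. The members higher in the capsule were Cd40 (1.18), H2-DMb2 (1.05), Ifi30 (0.61) and Cd80 (0.56). MHC class I genes were 5 higher and 3 lower of 16 tested, beside 27.3% and 28.2% of all genes, with a median of -0.07. The counts became 3 and 5 with the scaling over macrophage-side genes.

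Integrins and adhesion molecules were 15 lower and 5 higher of 25 tested, with a median of -0.75. Several partners in binding matrix and latent transforming growth factor beta were lower in the capsule: Itgav had 28.5, 45.9, 40.8 and 31.8 CPM in the capsule and 210, 195, 178 and 184 CPM in the kidney (log2 fold change -2.38 ± 0.15), Itgb5 had 335, 232, 247 and 319 CPM against 694, 795, 674 and 702 CPM (-1.34 ± 0.12), and Itga9 differed by -2.24. Itga8, which is known from mesangial and smooth muscle cells and is in none of the lists, had 2.53, 4.15, 8.77 and 7.64 CPM against 127, 127, 116 and 105 CPM (-4.37 ± 0.33). In the list of transforming growth factor beta and bone morphogenetic protein genes, 12 were higher and 11 lower of 26 tested, or 9 and 12 with the scaling over macrophage-side genes. Of all genes tested, 27.3% were called higher and 28.2% lower. Beside Tgfbr1, the feedback genes Skil (29.2 against 180 CPM, -2.63) and Smad7 (-1.41) were lower in the capsule, while Nrros, a protein that tethers latent transforming growth factor beta on myeloid cells, was higher (1183 against 469 CPM, 1.33). The receptor's partner Tgfbr2 differed by 0.32, or by 0.13 and short of the threshold with the scaling over macrophage-side genes, and the ligand Tgfb1, at 192 against 180 CPM, did not pass the test.

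Inflammatory cytokine and NF-kB genes were 6 higher and 11 lower of 29 tested, beside 27.3% and 28.2% of all genes, with a median of -0.26. Il1b had 44.6, 49.2, 53.6 and 55.3 CPM in the capsule and 434, 481, 517 and 544 CPM in the kidney (log2 fold change -3.29 ± 0.10). The inflammasome sensor Nlrp3 (-1.33), the NF-kB subunit Rel (-1.24) and the NF-kB cofactor Nfkbiz (-1.21) were lower, and Tnf was at 14.3 against 25.9 CPM (-0.86), a call lost without kidney replicate 4 (adjusted p = 0.0623). Il10, an anti-inflammatory cytokine, was higher in the capsule, though low (6.37 against 0.543 CPM, 3.53), as was the interleukin-1 receptor antagonist Il1rn (29.2 against 8.29 CPM, 1.82). Interferon response genes were 8 higher and 8 lower of 33 tested, beside 27.3% and 28.2% of all genes. These counts became 5 and 9 with the scaling over macrophage-side genes, and the median of 0.06 became -0.13. Oasl1 (1.87), Ifi205 (1.72) and Gbp7 (1.58) were higher, Mx1 (-1.70) and Oas2 (-1.05) lower. Toll-like receptors and adaptors were 9 higher and 10 lower of 24 tested, or 5 and 12 under that scaling, beside the same shares of all genes. Of them, the flagellin receptor Tlr5 (81.6 against 4.31 CPM, 4.24) and Tlr8 (1.52) were higher and Tlr12 (-2.80) and Tlr1 (-1.52) lower.

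Of 45 lineage transcription factors tested, 20 were higher and 13 lower in the capsule, with a median of 0.16, or -0.03 with the scaling over macrophage-side genes. The shares over all genes were 27.3% higher and 28.2% lower. Klf2 had 503, 639, 525 and 500 CPM in the capsule and 87.2, 116, 86 and 144 CPM in the kidney (log2 fold change 2.32 ± 0.17). Maf, a factor of resident macrophages, had 172, 182, 175 and 200 CPM against 53.8, 48.1, 54.9 and 59.1 CPM (1.76 ± 0.09). Runx1 (149, 133, 128 and 150 CPM against 278, 293, 256 and 304 CPM, -1.01), Nr4a1 (98.6 against 346 CPM, -1.81) and Prdm1 (-2.11) were lower. Gata6, known from cavity macrophages and from mesothelium, had 245 counts in the capsule and 0 in the kidney, at least 77.5-fold higher against a floor of 3 counts over the group, at 1.47 CPM in the capsule.

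Immediate early genes, which answer handling within minutes, were 17 higher and 5 lower of 32 tested, with Fos at 1746 against 713 CPM (log2 fold change 1.29) and Egr1 at 967 against 340 CPM (1.51), while Atf3 (-1.28) and Nr4a1 were lower. Their part in the other differences was not tested. Heat shock and stress genes were 6 higher and 8 lower of 20, beside 27.3% and 28.2% of all genes. Cell cycle genes were 12 higher and 1 lower of 33, beside the same shares of all genes. Of them, Mki67 at 18.1 against 20.9 CPM and Top2a at 42.4 against 32.7 CPM did not pass the test, Top2a doing so only without capsule replicate 2. With the scaling over macrophage-side genes, 7 cell cycle genes were higher. Oxidative phosphorylation genes were 16 higher and 6 lower of 40, which became 4 and 9 under that scaling, and glycolysis genes were 10 higher and 4 lower of 22, with Hk3 (323 against 108 CPM, 1.58) and Hk1 (1.29) in front. Gapdh, at 6.81 against 9.15 CPM, has near-identical copies in the genome, so that its count is uncertain; it was called lower with DESeq2 (-0.44) and under 2 of the other settings.

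Genes of kidney tubules were kept apart, and they were higher in the kidney libraries. Of 31 proximal tubule genes tested, 27 were lower and 1 higher in the capsule, with a median of -4.74, and 30 of the 31 are tissue-side. Summed over the list, the capsule libraries had 1156, 626, 692 and 726 CPM of the unscaled total and the kidney libraries 9993, 5870, 10377 and 6071 CPM. The sodium-phosphate cotransporter gene Slc34a1, a marker of proximal tubule cells, had 40.3, 6.93, 5.82 and 3.71 CPM in the capsule and 493, 367, 522 and 378 CPM in the kidney (log2 fold change -4.94 ± 0.71; edgeR adjusted p = 0.000182). Capsule replicate 1 was the highest of its group, and kidney replicates 1 and 3 were above replicates 2 and 4, both in Slc34a1 and in the sum. Without capsule replicate 1 the difference of Slc34a1 was -6.32. The secreted glutathione peroxidase Gpx3 made up much of the sum, at 3315 CPM in the kidney and 634 CPM in the capsule on average. Loop and distal nephron genes were 23 lower and 1 higher of 25, with Umod (1.49 against 58.8 CPM, -5.23) and the water channel Aqp2 (0.969 against 60.6 CPM, -5.87) among the lower, or -7.44 and -8.13 without capsule replicate 1. The member higher in the capsule, Atp6v0d2 (1.69), is also a gene of lipid-laden macrophages and osteoclasts. The 6 tissue-side genes chosen for the largest differences toward the kidney were Kcnj15 (-7.83), Slco4a1 (-6.45), Slc17a3 (-6.24), Cyp2j5 (-6.06), Acsm2 (-5.99) and Slc17a1 (-5.95). Leaving out capsule replicate 1 moved 5 of them, to -8.48 for Kcnj15, -8.28 for Slc17a3, -7.66 for Cyp2j5, -7.06 for Acsm2 and -8.79 for Slc17a1, and leaving out replicate 4 moved Slco4a1 to -7.87. In bulk samples, fewer cells of a type and less RNA per cell cannot be told apart.

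Fibroblast and matrix genes went the other way, 31 higher and 2 lower of 33 tested, with a median of 4.64, all 33 of them tissue-side. Their sum was 1160, 1081, 1347 and 1563 CPM in the capsule and 298, 302, 276 and 242 CPM in the kidney. Dcn, the small proteoglycan decorin, had 318, 185, 270 and 332 CPM in the capsule and 1.66, 2.62, 2.56 and 1.97 CPM in the kidney (log2 fold change 6.98 ± 0.24). Col1a1 had 68.2, 81, 108 and 129 CPM against 0.356, 1.78, 0.739 and 0.637 CPM (6.79 ± 0.41, or 7.41 without kidney replicate 2). The exceptions were Col14a1, at 42.5, 27.5, 43.8 and 51.6 CPM in the capsule and 167, 184, 144 and 126 CPM in the kidney (-1.91 ± 0.19), and Col15a1 (-1.89). Among the tissue-side genes of largest difference toward the capsule, Cilp had 9861 counts in the capsule and 1 in the kidney, a ratio of 9355 with a counting interval from 1679 to 369500, and Scara5 (10.27), Igfbp6 (9.97), Penk (7.80) and Smoc2 (6.83) followed with Dcn. Scara5 and Igfbp6 rest on 5 and 8 kidney counts and were at 11.79 and 10.82 without kidney replicate 1, and without kidney replicate 3 Cilp has no kidney count. Adipocyte genes were 10 higher and 1 lower of 11, the lower one being Pparg, and Adipoq had 555 counts in the capsule and 0 in the kidney (at least 176-fold higher against the floor of 3 counts).

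**Figure D4:**
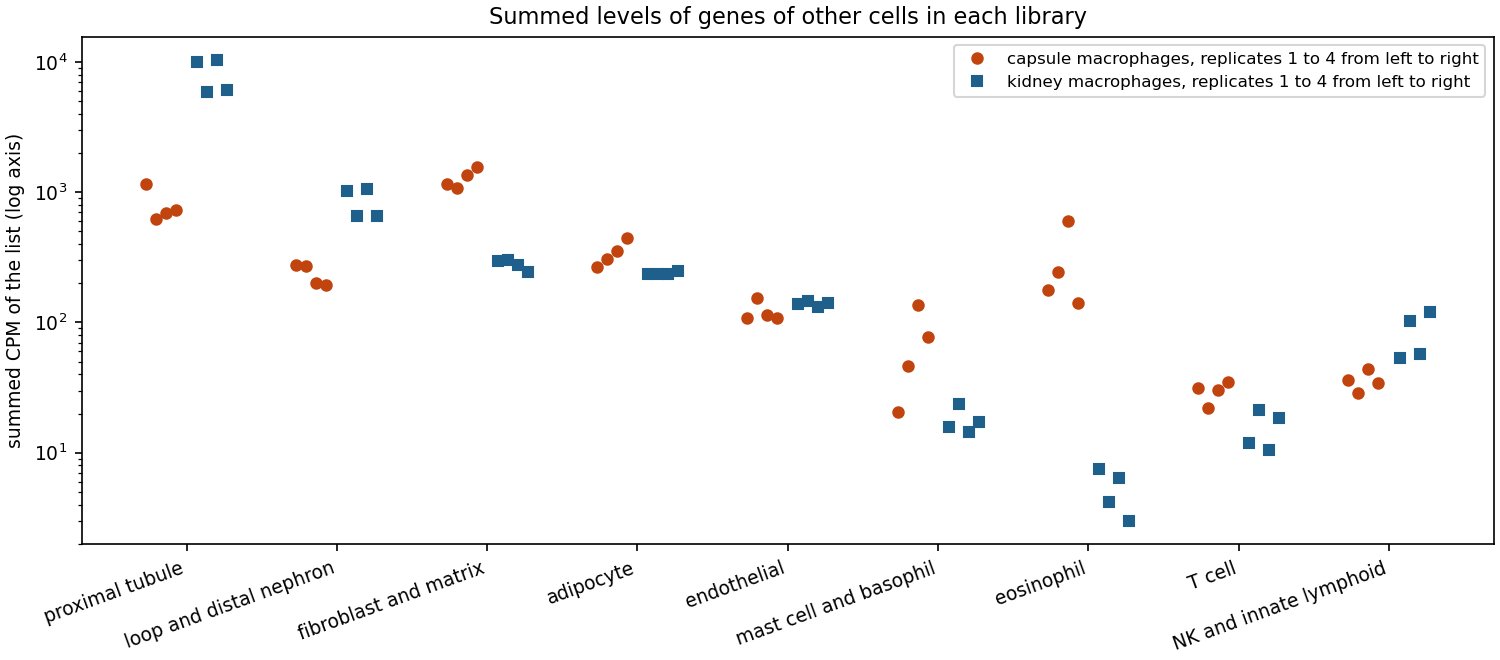
Summed CPM (log axis, unscaled library total) of 9 lists of genes of other cells in each library, with circles for capsule and squares for kidney macrophages. The proximal tubule sum lies between 626 and 1156 CPM in the capsule and between 5870 and 10377 CPM in the kidney, the fibroblast sum is higher in every capsule library, and the endothelial sums overlap.

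Endothelial genes were 4 lower and 1 higher of 19 tested in the capsule, or 2 and 2 without capsule replicate 1. Over all genes tested, 28.2% were called lower and 27.3% higher. Pecam1 had 5.91, 12.1, 16.2 and 7.84 CPM in the capsule and 17.9, 19.7, 14.9 and 18.8 CPM in the kidney, with overlap between the groups (log2 fold change -0.76 ± 0.28; edgeR adjusted p = 0.0371), and leaving out any of 5 libraries ended the call (adjusted p between 0.0615 and 0.0942). Genes of granulocytes varied between the capsule libraries. All 4 eosinophil genes tested were higher in the capsule, and their sum was 177, 246, 604 and 141 CPM in the capsule against 7.53, 4.2, 6.44 and 2.99 CPM in the kidney, with replicate 3 the highest. Alox15, the 15-lipoxygenase and a member of that sum, had 97.5, 147, 395 and 85.2 CPM against 1.72, 0.242, 1.34 and 0.0773 CPM. Its log2 fold change was 7.78 ± 0.79, or 7.06 without capsule replicate 3 and 8.53 without kidney replicate 1. The eotaxin receptor Ccr3, also a member, had 60, 81.6, 180 and 46.2 CPM against 1.62, 0.946, 1.85 and 1.35 CPM (6 ± 0.48). The granule protein genes Epx and Prg2 had 30 and 17 counts over the 4 capsule libraries and were not tested, against 0 and 39 over the kidney libraries, and the 4 tested genes are macrophage-side. Mast cell and basophil genes were 7 higher and 0 lower of 8. Their protease Tpsb2 stood at 0.425, 8.52, 38.4 and 20.2 CPM in the capsule, lowest in replicate 1, and at 0 in all kidney libraries, with 2752 counts in the capsule or at least 870-fold more than the floor of 3 counts. With limma-voom Tpsb2 missed the threshold (adjusted p = 0.0864).

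In the neutrophil list, Mmp9, Padi4 (6.89) and Retnlg (4.20) were higher in the capsule, but the defining genes S100a8 and S100a9 had 11 and 8 counts over the 4 capsule libraries and 4 each over the kidney libraries, and Ly6g had 0 and 2. Of 12 T cell genes tested 3 were higher and 0 lower, and of 11 natural killer and innate lymphoid genes 3 were lower, Klrd1 (-1.75), Klrk1 (-0.80) and Gzma (-2.29). Over all genes tested, 27.3% were called higher and 28.2% lower. Dendritic cell genes were 13 higher and 2 lower of 19, and 14 of these 19 are macrophage-side. Their sums ran from 1880 to 2321 CPM of the unscaled total in the capsule and from 1112 to 1309 CPM in the kidney. Clec10a and Cd24a (130 against 12.3 CPM, log2 fold change 3.40) were higher, Clec9a (-2.01) and Dpp4 (-1.34) lower, and Flt3, at 51.2 against 53.9 CPM, did not pass the test. B cell and plasma cell genes were 4 higher and 3 lower of 11, with sums of 1378 to 1500 CPM in the capsule and 1163 to 1214 CPM in the kidney. Most of these sums was the immunoglobulin heavy chain gene Ighm (1393 against 986 CPM, 0.50). The receptor genes Cd79b (20.7 against 66.4 CPM, -1.68) and Cd22 (-1.64) were lower in the capsule, Cd79a, at 0.477 against 1.01 CPM, did not pass the test, and the defining gene Ms4a1 had 0 counts in all 8 libraries. The heavy chain gene Igha, which is not in the list, had 0 counts in the capsule and 2372 in the kidney. Erythroid and platelet genes were 8 higher and 1 lower of 9, with sums of 1063 to 1304 CPM in the capsule and 67.4 to 90.7 CPM in the kidney. Most of the capsule sum was Pf4, a macrophage-side gene, and the red cell gene Alas2 had 0 counts in all 8 libraries. Haemoglobin genes were higher in the capsule, such as Hbb-bs at 133 against 16.1 CPM (3.05), although the reads of such near-identical genes may not be cleanly split. Their part in the differences between the macrophage groups was not tested, and the same holds for every list of other cells given above. The Y-linked genes Ddx3y (-1.28), Eif2s3y (-0.84), Uty (-0.76) and Kdm5d (-0.62) were lower in the capsule, with Ddx3y at 46.2, 44.4, 35.7 and 33.7 CPM against 103, 100, 101 and 84.6 CPM. They were detected in all 8 libraries, and the labels do not give the sex of the animals. The call for Kdm5d was lost when any of 5 libraries was left out (adjusted p between 0.0739 and 0.108).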

How the data were processed

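RNA-seq read counts per gene were deposited for 22 libraries, and 8 of them entered the comparison. Per the labels' protocols, libraries were made from low or regular amounts of RNA with different kits, and the labels do not say which kit served which sample. The submitters' processing notes name the build GRCm38, while the aligner and counter were not given in the sources used here. The authors deposited whole-number counts, 1 column a library, for 52636 genes, of which 52489 were found in GENCODE M21.

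The counts were fitted with edgeR 4.0.16 (quasi-likelihood F test, TMM factors, filterByExpr, Benjamini-Hochberg adjustment over all genes tested, threshold 0.05, both directions). The fit was run on simulated counts in which few genes changed, evenly up and down. That setting does not test the scaling in data where 55.4% of genes were called. The 4 capsule macrophage and 4 kidney macrophage libraries were compared without a block. Replicate numbers came from the titles, and deviations of same-numbered libraries correlated at 0.0357, 0.0235, -0.0478 and 0.0184, so the numbers were not taken to pair them. Gene classes came from the same fit on the 14 other libraries, and 1053 genes lay within 0.1 of a class limit on the log2 scale. Kidney replicates 1 and 3 were the most alike pair but differed by more than sampling noise. Levels are CPM of the TMM-scaled total of genes passing the filter, and sums of lists are CPM of the unscaled total. Counts of list members replace a test of the list, and each is to be read beside 27.3% of all genes called higher and 28.2% called lower. The number of counts limits precision through counting error only, as PCR copies could not be removed.

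The members and the 51 gene lists were chosen with earlier results of these data known. Named genes were, by rule, macrophage-side genes of largest difference (12 in each direction) and tissue-side genes (6 in each direction) expressed at 4 or more in mean log2 CPM and without overlap between groups, the 4 list members of smallest p, and fixed markers; further list members, and Itga8, were picked after their values were seen. Some list members are not reported here, though the counts of members include them. Alternatives were DESeq2 1.42.0, limma-voom (limma 3.58.1), other scalings and filters, a replicate block, and leaving out each library.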

Additional observations from a re-analysis of the deposited data

Results flagged for a closer look

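In each group of 4 libraries, a library counted as standing apart where its gap to the nearest other exceeded the critical share of the group's range in Dixon's test, which chance alone gives in about 1 of 20 groups. Over the named genes and summed lists, 23 of 430 groups met this, or 5.3%. Capsule replicate 1 stood above the other capsule libraries in 7 genes of the nephron: Slc34a1 (40.3 CPM), Kap (36.7 CPM), Umod (4.92 CPM), Cyp2j5 (3.42 CPM), Aqp2 (3.24 CPM), Slc17a1 (2.47 CPM) and Slc17a3 (1.5 CPM). It was also the high library in Ptchd1 (11.4 CPM). Capsule replicate 2 stood apart in Ctsl (464 CPM) and Ighm (1455 CPM), where it was highest, and in Klrk1 (12.1 CPM) and Tnf (6.74 CPM), where it was lowest. Capsule replicate 3 was highest in Masp1 (1.86 CPM) and replicate 4 in Adipoq (6.84 CPM). In the kidney group, replicate 4 was highest in Ccl3 (165 CPM) and Oasl1 (21 CPM) and lowest in Mki67 (19.3 CPM) and Ddx3y (84.5 CPM). Kidney replicate 2 was highest in Dpp4 (83.7 CPM) and Tgfbr2 (742 CPM) and lowest in Cd59a (2.29 CPM), replicate 1 was highest in Igfbp6 (0.099 CPM), and Cilp had its only kidney count in replicate 3 (0.0284 CPM).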

How the results depend on the processing

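All 4 counts of genes called, in both directions, stayed within 1.5 times the main count under RLE factors, DESeq2, limma-voom, no filter on low counts, a replicate block and the scaling over macrophage-side genes. The fit of all 22 libraries gave 4229 higher and 4440 lower genes. The exceptions follow from testing fewer genes: without tissue-side genes, 1192 genes were higher and 1397 lower by at least 2-fold, and with classes cut at 4-fold, 826 macrophage-side genes were higher and 497 lower and 499 tissue-side genes were higher. Leaving out 1 library at a time gave 3869 to 4238 higher and 3876 to 4582 lower genes, 1817 to 1920 and 2243 to 2649 at 2-fold, 1531 to 1677 and 906 to 1010 in the macrophage-side class, and 779 to 846 and 1330 to 1577 in the tissue-side class. The replicate numbers were not taken to pair the samples, and the replicate block gave 3954 higher and 4267 lower genes. Chosen after seeing the data, a restriction to genes with at most 10% of their span overlapped left 3570 higher and 3557 lower.

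On the log2 scale the summed level of the Lyve1 list moved from 3.27 to 3.48 with the TMM-scaled total, that of MHC class II from -0.93 to -0.72 and that of fibroblast genes from 2.20 to 2.42, each by more than the spread between replicates, since the TMM factors of the capsule libraries are the smaller ones. Of 208 named genes, 196 kept their side of the threshold under every alternative that tested them (15, less the one without tissue-side genes for genes of that class). The other 12, given in the report, crossed the threshold under at least 1. No gene changed direction between the main fit and an alternative where either of them called it. Changes of direction in genes that neither called were not counted. Depth limits genes under about 1 CPM.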
